A study of Homo sapiens with 24 samples.

Results

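The interleukin-1 (IL-1) family network is represented here by IL18BP, IL1RN, IL18, IL1R1, IL1RAP, SIGIRR and MYD88, measured in HepG2 cells. These genes were listed by symbol and make up 7 of the 26475 gene symbols counted. The members and the gene lists used below were chosen with earlier results of these data known. Their p-values and counts are therefore not independent of that choice. IL18BP was picked on its response to interferon gamma (IFNg) under ABBV-075, so its values in any group that entered that contrast are given as a description, without a test. HepG2 is an established liver cancer cell line, and RNA-seq was available for 24 libraries in 8 groups of 3. The cells received DMSO, 50 nM ABBV-075, 50 nM ABBV-744 or 500 nM ABBV-744, each either alone or together with IFNg. Every group is the same cell line, and the labels give neither the IFNg dose nor the treatment times. The labels do not say whether the 3 libraries of a group came from separate cultures, so p-values measure the spread between these libraries, which may be technical.

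The IL-1 family signals through paired receptors. IL-1 binds IL1R1, which then recruits the co-receptor IL1RAP, and the adaptor MYD88 carries the signal to kinases that activate NF-kB. The pathway is restrained at several levels: IL1RN encodes the secreted receptor antagonist that occupies IL1R1 without signalling, IL18BP encodes a secreted protein that captures the ligand IL-18, and SIGIRR is an inhibitory receptor. In the liver, IL-1 is known for driving acute phase protein and chemokine genes, and IL18BP is known as an IFNg-inducible gene. ABBV-075 is known as an inhibitor of both bromodomains of the BET proteins, which read acetylated chromatin, and ABBV-744 as an inhibitor selective for the second of these bromodomains.

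All 7 members are protein-coding in the GENCODE annotation of GRCh38. IL18BP lies at chr11:71998613-72007315 on the plus strand, where it overlaps NUMA1 on the opposite strand. IL1RN lies at chr2:113099315-113134016 and IL1R1 at chr2:102064544-102179874, both on the plus strand. IL1RAP lies at chr3:190514051-190659750 and MYD88 at chr3:38138552-38143024, also on the plus strand. IL18 lies at chr11:112143253-112164096 and SIGIRR at chr11:405716-417455, both on the minus strand. The counts used strand, and the opposite strand of IL18BP held 4.59% of the counts of both strands, against 0.127% to 0.268% for IL1RN, IL1R1, IL1RAP and MYD88.

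The RefSeq promoter table (GRCh38.p14) held 14 windows of 300 bases for 6 of the members and none for IL18. Each window runs from 250 bases before a start site to 50 after it. Both strands were searched for TTCNNNGAA (the GAS element of IFNg-responsive genes), the ISRE element of interferon genes, the NF-kB element, TGANTCA (AP-1) and TTGCNNAA (C/EBP). Of all 35116 windows in the table, 7.66% held the GAS letters, 3.57% ISRE, 1.91% NF-kB, 7.71% AP-1 and 10.5% C/EBP. The matches in IL18BP, MYD88 and IL1RN are shown because the values of these 3 genes carry most of the results. Capitals mark the motif, and all are written on the plus strand.
IL18BP ISRE, chr11:71999540-71999569: gttaaaaagtGAAAGTGAAAtagagggtcg
IL18BP GAS, chr11:71999570-71999598: gggcagtgctTTCCCAGAAggattgctcg
IL18BP GAS, chr11:71999600-71999628: catcctgcccTTCCCAGAAgcagctctgg
MYD88 ISRE, chr3:38138590-38138619: gcgcttctcgGAAAGCGAAAgccggcgggg
IL1RN ISRE, chr2:113127357-113127386: caatgaagggGAAATAGAAAtcttaatttt
IL1RN NF-kB, chr2:113127491-113127520: aatgcgaggaGGGTATTTCCgcttctcgca
IL1RN AP-1, chr2:113117738-113117764: tctgctagccTGAGTCAccctcctgga
A single one of the 4 IL18BP windows held all 3 of its matches, at -67, -37 and -7 from the start site. The MYD88 ISRE at -61 overlaps a GAS match at -67. The IL18BP, MYD88 and IL1RN NF-kB matches also lie in exons of longer annotated transcripts. IL1R1 had 1 GAS match and 1 C/EBP match in 4 windows, and the single windows of IL1RAP and SIGIRR held none of the motifs. A match is only a match of letters, and no binding was measured.

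The libraries held 2978982 to 4304103 counts on genes, with a median of 3462418.5. HepG2 expressed the hepatocyte genes throughout, with ALB between 1865 and 3552 CPM (the counts of a gene scaled to the library total, with TMM normalization). PTPRC, CSF1R, CD3E, COL1A2 and DCN had no count in any library. Of the 4 stellate and fibroblast markers, COL1A1, COL1A2 and DCN had at most 3 counts in every library, and PDGFRB had 22, 33 and 29 counts with DMSO and 7, 4 and 8 with ABBV-075. The sum of that list ran from 5.85 to 7.36 CPM with DMSO, from 1.15 to 2.71 CPM with ABBV-075, from 1.72 to 4.64 CPM with ABBV-744 at 500 nM, from 4.45 to 6.23 CPM with IFNg and from 1.51 to 1.74 CPM with IFNg and ABBV-075. Of the 7 myeloid and lymphoid markers, 4 had counts, chiefly LYZ (1092 to 1873 CPM), and the sum of the list ran from 1650 to 1776 CPM with DMSO, from 1153 to 1234 CPM with ABBV-075 and from 1105 to 1353 CPM with IFNg and ABBV-075. The part of these markers in the results was not tested. HEXIM1, a gene known to rise under BET inhibition, rose with ABBV-075 (log2 fold change 1.41, SE 0.12, adjusted p = 6.81e-06, edgeR) and with ABBV-744 at 500 nM (0.74, adjusted p = 1.89e-05). It did not pass with ABBV-744 at 50 nM, either alone (0.29, adjusted p = 0.0816) or with IFNg (0.09, adjusted p = 0.565, edgeR). MYC, the other gene checked for the inhibitors, was lower with ABBV-075 (-0.73, adjusted p = 0.000894) and with ABBV-744 at 500 nM (-0.31, adjusted p = 0.0397, edgeR). With ABBV-744 at 50 nM alone it did not pass (-0.19, adjusted p = 0.224, edgeR). Against IFNg alone, MYC was lower with IFNg plus ABBV-744 at 50 nM (-0.64, adjusted p = 1.24e-06, edgeR). In that comparison 51.7% of all genes passed. IRF1, a direct IFNg target, rose with IFNg (4.26, SE 0.12, adjusted p = 4.53e-27, edgeR). IRF1 rose with IFNg under ABBV-075 too (4.04, SE 0.17, adjusted p = 1.08e-08, edgeR).

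A trend with GC content moved with the ABBV-744 groups. Across 11470 genes, the level of a gene in a library relative to its mean over all libraries was correlated with the GC content of the gene, with r between 0.50 and 0.66 in the ABBV-744 50 nM libraries and between 0.26 and 0.64 at 500 nM. With IFNg added, the same r was between -0.59 and -0.55 at 50 nM and between -0.53 and -0.22 at 500 nM. The ABBV-075 libraries ranged from -0.49 to 0.15, the DMSO libraries from 0.07 to 0.28 and the IFNg libraries from 0.12 to 0.43. The ABBV-744 groups with and without IFNg lay at opposite ends of this trend, and treatment and GC trend cannot be told apart in these libraries. Each comparison was also fitted with an offset that removes the trend. GC-corrected values are given beside only some of the main results, so a value without one may also move with the correction.

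**Figure D1:**
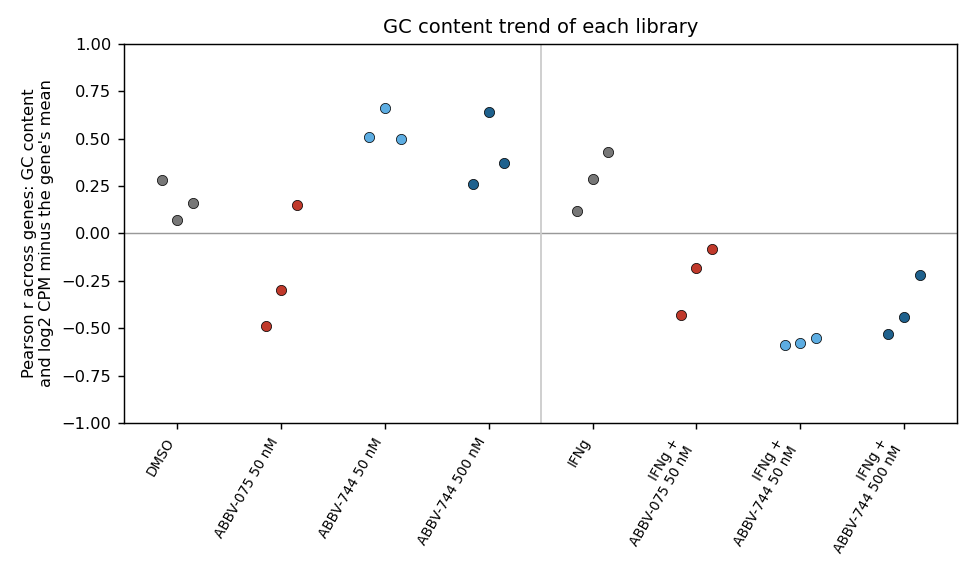
Pearson correlation across 11470 genes (vertical axis, no unit) between GC content and the log2 CPM of a gene minus its mean over 24 libraries. Each point is 1 library, and the 8 groups are on the horizontal axis. All 6 ABBV-744 libraries without IFNg lie above 0, and all 6 with IFNg lie below 0.

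IL18BP, the decoy for IL-18, stood at 4.26, 3.79 and 5.97 CPM in the 3 DMSO libraries. IFNg alone gave 26.8, 37.6 and 31.1 CPM, the only group in which the gene passed 20 CPM. IFNg with ABBV-075 gave 6.46, 10.1 and 9.64 CPM, which overlapped ABBV-075 alone at 6.5, 8.59 and 9.32 CPM. These 4 groups define the contrast by which the gene was picked. In their fits IL18BP was higher by 2.76 on the log2 scale (SE 0.21) with IFNg than with DMSO and by 0.13 (SE 0.27) with IFNg plus ABBV-075 than with ABBV-075 alone, a difference of -2.67 (SE 0.35). Only 0.0347% of the 11530 genes tested passed an adjusted p of at most 0.05 for that interaction, which chose the gene. In bulk RNA, fewer cells expressing a gene and less RNA per cell cannot be told apart.

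The ABBV-744 groups took no part in that choice, and in them IL18BP could be tested. ABBV-744 at 50 nM gave 9.21, 5.93 and 4.76 CPM, and with IFNg 12.3, 12.7 and 11.1 CPM. The groups did not overlap, and IL18BP rose by 0.84 on the log2 scale (SE 0.24, adjusted p = 0.00626, edgeR). After GC correction the value was 1.28 (SE 0.24, adjusted p = 0.000228). In this comparison 60.2% of all genes tested passed, so a call is common, and 32.6% passed after GC correction. ABBV-744 at 500 nM gave 6.67, 8.65 and 4.31 CPM, and with IFNg 15.7, 10.4 and 8.9 CPM. IL18BP rose here by 0.82 (SE 0.28, adjusted p = 0.0239, edgeR, and 1.15 after GC correction) against a background of 40.9% of genes passing. That call was lost without ABBV-744 500 nM replicate 3 (0.60, adjusted p = 0.134) and without IFNg + ABBV-744 500 nM replicate 1 (0.58, adjusted p = 0.164).

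The IFNg response of IL18BP was smaller in value under ABBV-744 than with DMSO, and the difference of the 2 responses was -1.95 (SE 0.35) at 50 nM and -1.94 (SE 0.38) at 500 nM on the log2 scale. Both share the DMSO and IFNg libraries that chose the gene and are given without a test, and GC correction moved them to -1.42 and -1.55. Between the 2 doses of ABBV-744 the difference in the IFNg response of IL18BP was -0.01 on the log2 scale (95% interval -0.84 to 0.82, adjusted p = 0.996, edgeR), with 0.0264% of genes passing.

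Without IFNg, IL18BP had a higher mean with each inhibitor than with DMSO. The difference was 0.77 (SE 0.28) with ABBV-075, 0.53 (SE 0.31) with ABBV-744 at 50 nM and 0.48 (SE 0.31) at 500 nM, and the ABBV-744 libraries overlapped the DMSO range. In the presence of IFNg the direction turned, and the difference from IFNg alone was -1.89 (SE 0.20) with ABBV-075, -1.39 (SE 0.17) with ABBV-744 at 50 nM and -1.48 (SE 0.19) at 500 nM. GC correction moved these to -1.62, -1.06 and -1.19. In the order of the 8 group means, IFNg alone was separate from the next group, and every other pair of neighbours overlapped.

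**Figure D2:**
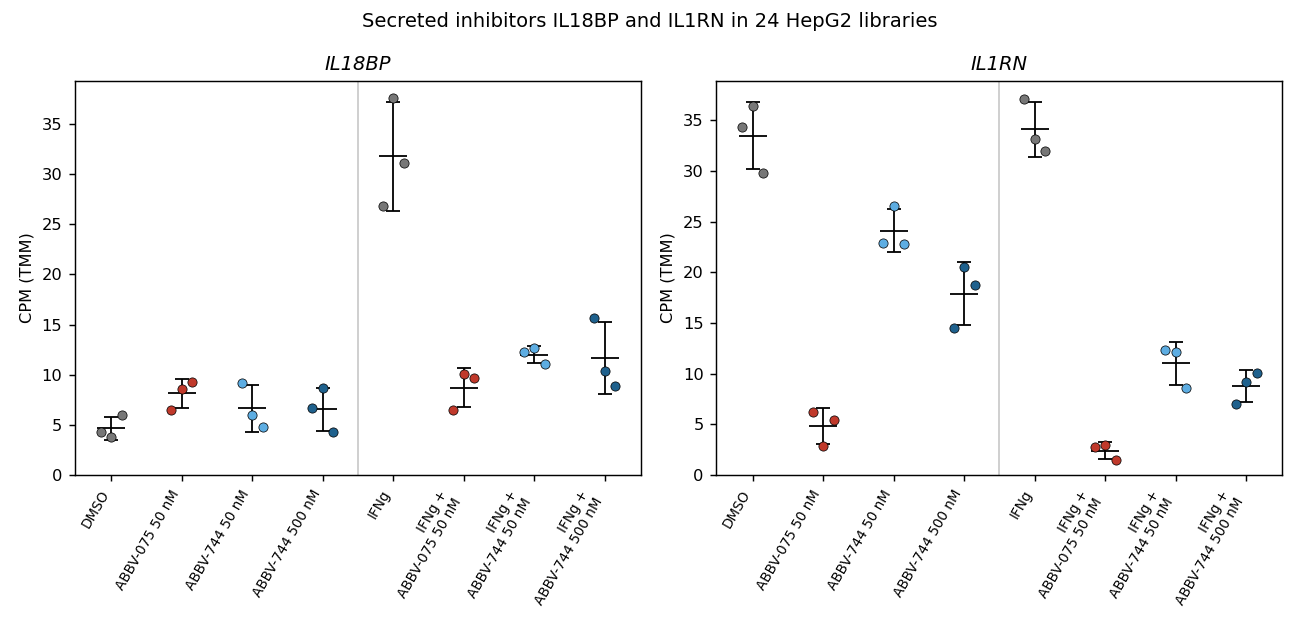
CPM (TMM scaled, vertical axes starting at 0) of IL18BP on the left and IL1RN on the right in 24 libraries. Points are libraries, bars are the mean and SD of 3, and the vertical line divides groups without and with IFNg. IL18BP is high with IFNg alone (26.8 to 37.6 CPM), and IL1RN is low in both ABBV-075 groups (at most 6.26 CPM).

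IL1RN, the receptor antagonist, showed another pattern: no change was detected with IFNg alone, and the inhibitors lowered it. DMSO gave 34.3, 36.4 and 29.8 CPM and IFNg 37.1, 33.2 and 32 CPM, with overlapping ranges and a log2 fold change of 0.03 (95% interval -0.23 to 0.29, adjusted p = 0.948, edgeR). ABBV-075 gave 6.26, 2.86 and 5.41 CPM, and with IFNg 2.73, 2.99 and 1.51 CPM. Against DMSO, IL1RN had a log2 fold change of -2.79 with ABBV-075 (SE 0.24, adjusted p = 6.95e-06, edgeR), and -2.65 with GC correction. It had 26, 10 and 18 counts with ABBV-075 and 129, 163 and 125 with DMSO. Against IFNg alone, IL1RN fell with IFNg plus ABBV-075 by 3.80 on the log2 scale (SE 0.24, adjusted p = 6.58e-16, edgeR), and GC correction gave -3.54. The gene had 11, 11 and 5 counts with IFNg and ABBV-075, against 137, 113 and 115 with IFNg alone. It could be tested here through its level with IFNg alone, so the size of the fall rests on few counts. No library of either ABBV-075 group reached the lowest library of any other group.

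ABBV-744 lowered IL1RN less. At 50 nM the libraries gave 22.9, 26.5 and 22.8 CPM, and the fall of 0.46 on the log2 scale (SE 0.15) passed narrowly (adjusted p = 0.0344, edgeR). This call was lost under DESeq2 (adjusted p = 0.0781), with the replicate block (adjusted p = 0.0637), with all 24 libraries in the fit (adjusted p = 0.0572), and when any library other than ABBV-744 50 nM replicate 2 was left out (adjusted p 0.0544 to 0.169, edgeR). At 500 nM the libraries gave 14.5, 20.5 and 18.7 CPM, all below the DMSO range, and IL1RN fell by 0.90 (SE 0.16, adjusted p = 0.000252, edgeR). The levels at the 2 doses did not overlap, but the direct comparison of 500 with 50 nM gave -0.44 (95% interval -0.83 to -0.05, adjusted p = 0.799, edgeR), where 0.0274% of genes passed.

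Where ABBV-744 was present, IL1RN was lower with IFNg than without it, in groups whose treatment and GC trend cannot be told apart. ABBV-744 at 50 nM with IFNg gave 12.3, 12.1 and 8.58 CPM, and at 500 nM 7.02, 9.17 and 10.1 CPM, each below the same dose without IFNg and below IFNg alone. Against IFNg alone IL1RN fell by 1.61 at 50 nM (SE 0.17, adjusted p = 1.18e-09) and by 1.97 at 500 nM (SE 0.19, adjusted p = 4.83e-10, edgeR). Against the same dose alone it fell by 1.12 (SE 0.18, adjusted p = 4.18e-05, edgeR) at 50 nM and by 1.02 (SE 0.22, adjusted p = 0.00093, edgeR) at 500 nM. GC correction reduced these to -0.85 and -0.76, and both still passed. In these 2 comparisons 60.2% and 40.9% of all genes passed, and 32.6% and 28.2% after GC correction. The IFNg response of IL1RN differed from that with DMSO by -1.18 (SE 0.22, adjusted p = 6.68e-05) at 50 nM and by -1.05 (SE 0.25, adjusted p = 0.00148) at 500 nM in edgeR, where 51.6% and 33.5% of genes passed. After GC correction the interactions were -0.84 and -0.76, and both still passed. Under ABBV-075 the interaction for IL1RN was -1.03 (95% interval -1.82 to -0.25) but did not pass (adjusted p = 0.643, edgeR), at counts of 5 to 26 per library. Only 0.0347% of all genes passed that interaction, and the ABBV-075 libraries differed widely, with GC trends from -0.49 to 0.15. The missing call therefore does not set ABBV-075 apart from ABBV-744.

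At the matched dose of 50 nM, the 2 compounds differed in their effect on IL1RN. It was higher with ABBV-744 than with ABBV-075 by 2.30 on the log2 scale without IFNg (SE 0.26, adjusted p = 0.000403, edgeR) and by 2.11 with IFNg (SE 0.30, adjusted p = 4.2e-07, edgeR). In these comparisons 40.8% and 33.7% of all genes passed. With IFNg and ABBV-075 IL1RN had 11, 11 and 5 counts, so the size of the second difference rests on few counts. IL18BP differed between the compounds by -0.26 (SE 0.29) without IFNg and 0.43 (SE 0.22) with it, given without a test.

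MYD88, the adaptor of the whole receptor family, was also lower with ABBV-075. DMSO gave 124, 121 and 113 CPM, and ABBV-075 39.5, 38.7 and 55.9 CPM, far below. MYD88 fell by 1.44 on the log2 scale (SE 0.16, adjusted p = 3.85e-05, edgeR). IFNg alone gave 164, 162 and 157 CPM, above every other library of the study, a rise of 0.44 (SE 0.08, adjusted p = 0.000407, edgeR). With IFNg and ABBV-075 the libraries gave 56.4, 43.5 and 50.9 CPM, a fall of 1.69 against IFNg alone (SE 0.11, adjusted p = 1.18e-15, edgeR). The interaction of the 2 treatments on MYD88 was -0.27 (95% interval -0.67 to 0.13, adjusted p = 0.799, edgeR).

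With ABBV-744 at 50 nM, MYD88 was at 116, 117 and 115 CPM and overlapped DMSO (log2 fold change -0.02, 95% interval -0.23 to 0.18, adjusted p = 0.889, edgeR). At 500 nM it was at 94.3, 99 and 104 CPM, and the difference of -0.26 (SE 0.10) passed only after GC correction (-0.36, adjusted p = 0.00116) or with library sizes alone (-0.33, adjusted p = 0.026, edgeR). Against ABBV-075 at 50 nM, MYD88 was higher with ABBV-744 by 1.39 (SE 0.16, adjusted p = 0.000408, edgeR), and by 1.16 when IFNg was present (SE 0.11, adjusted p = 1.83e-11, edgeR). How MYD88 answered IFNg under ABBV-744 depended on the GC correction. Its IFNg change was 0.002 at 50 nM and -0.02 at 500 nM without the correction, and 0.40 (adjusted p = 0.00183) and 0.29 (adjusted p = 0.00993) with it. The interactions of -0.47 and -0.45 passed (adjusted p = 0.00412 and 0.00703, edgeR), and with GC correction they were 0.02 (adjusted p = 0.949) and -0.09 (adjusted p = 0.646). The first was also lost with library sizes alone (-0.28, adjusted p = 0.0881). Against IFNg alone, MYD88 fell with IFNg plus ABBV-744 by 0.46 at 50 nM (adjusted p = 0.000107) and by 0.74 at 500 nM (adjusted p = 2.08e-07, edgeR), with GC-corrected values of -0.16 (adjusted p = 0.135) and -0.45.

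IL1R1, the signalling receptor for IL-1, was highest with DMSO, at 112, 124 and 146 CPM, and all other 21 libraries lay between 57.1 and 92.4 CPM. IL1R1 fell with ABBV-075 by 0.87 on the log2 scale (SE 0.14, adjusted p = 0.000612, edgeR), with ABBV-744 by 0.59 at 50 nM (SE 0.11, adjusted p = 0.000841) and by 0.71 at 500 nM (SE 0.11, adjusted p = 2.29e-05). It also fell with IFNg alone, by 0.54 (SE 0.10, adjusted p = 0.000152, edgeR), in a comparison where 3.46% of genes passed. All 4 comparisons share the DMSO libraries. With ABBV-075 added to IFNg, IL1R1 fell by 0.51 against IFNg alone (SE 0.11, adjusted p = 0.000215, edgeR). Adding ABBV-744 to IFNg gave -0.09 (SE 0.10) at 50 nM, which did not pass. The value of -0.26 at 500 nM passed (adjusted p = 0.0431, edgeR) but not under DESeq2 (adjusted p = 0.133), nor when any library except IFNg replicate 3 was left out (adjusted p 0.0891 to 0.131, edgeR). The interactions of IL1R1 with ABBV-744 were both 0.47 (adjusted p = 0.00961 and 0.0136, edgeR). Without DMSO replicate 3, its highest library, they were 0.36 (adjusted p = 0.0518) and 0.39 (adjusted p = 0.0537), and with GC correction 0.30 (adjusted p = 0.0949) and 0.40, the latter still passing.

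IL1RAP, the shared co-receptor, was lower with ABBV-744, and no change was detected with ABBV-075. DMSO gave 24.7, 27.7 and 30.3 CPM and ABBV-075 31.5, 24.6 and 18 CPM, a wide overlapping group (log2 fold change -0.17, 95% interval -0.59 to 0.26, adjusted p = 0.519, edgeR). With GC correction this value was -0.35 (95% interval -0.67 to -0.03, adjusted p = 0.0684). ABBV-744 gave 16.9, 9.98 and 15.5 CPM at 50 nM and 22.3, 14.7 and 13.2 CPM at 500 nM, all below the DMSO range. IL1RAP fell by 0.94 (SE 0.18, adjusted p = 0.00102, edgeR) and by 0.71 (SE 0.18, adjusted p = 0.00682, edgeR). The second call was lost without DMSO replicate 3 (adjusted p = 0.0556) or ABBV-744 500 nM replicate 3 (adjusted p = 0.0771, edgeR). With GC correction the values were -0.74 and -0.60, and both passed. With IFNg added, the libraries gave 24.5, 27.1 and 28.5 CPM at 50 nM and 24.4, 26.6 and 26.1 CPM at 500 nM, overlapping DMSO.

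The IFNg responses of IL1RAP under ABBV-744, 0.91 (adjusted p = 0.000341) and 0.61 (adjusted p = 0.0165, edgeR), no longer passed with GC correction (0.40, adjusted p = 0.0644, and 0.30, adjusted p = 0.206). The response at 500 nM was also lost without ABBV-744 500 nM replicate 3 (adjusted p = 0.106) or IFNg + ABBV-744 500 nM replicate 2 (adjusted p = 0.0611). Their difference from the IFNg response with DMSO, 1.35 (SE 0.23, adjusted p = 2.23e-05) and 1.08 (SE 0.24, adjusted p = 0.000719, edgeR), passed in both fits, at 0.81 and 0.70 after GC correction. IL1RAP has the lowest GC content of the 5 members that could be tested, 41.8% of the bases of its longest transcript, against 55.3% for IL18BP. Against IFNg alone, where IL1RAP gave 19.2, 20.6 and 19.7 CPM, the value with IFNg plus ABBV-744 at 50 nM was 0.44 (adjusted p = 0.0148, edgeR), 0.06 with GC correction (adjusted p = 0.799) and 0.37 without IFNg + ABBV-744 50 nM replicate 3 (adjusted p = 0.0809). Between the compounds at 50 nM without IFNg, IL1RAP gave -0.80 (adjusted p = 0.0296, edgeR) and -0.41 with GC correction (adjusted p = 0.101), and the call was lost without any of ABBV-075 replicates 1 and 2 and ABBV-744 50 nM replicates 2 and 3 (adjusted p 0.0643 to 0.11).

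**Figure D3:**
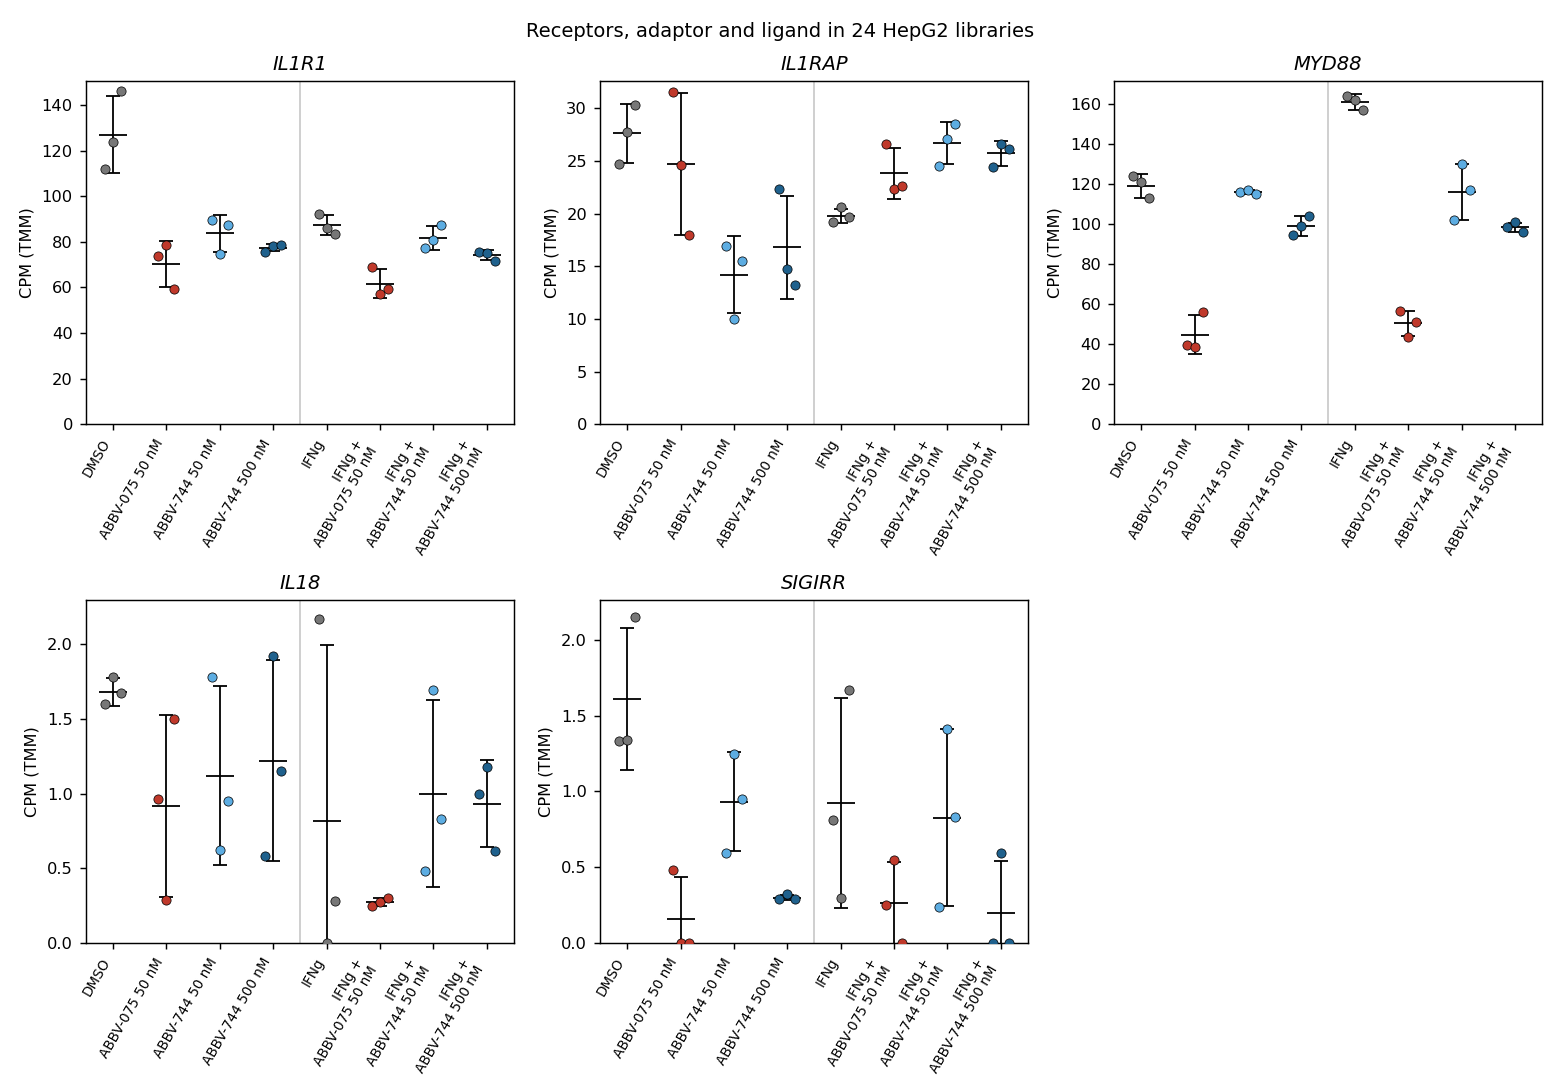
CPM (TMM scaled, vertical axes starting at 0) of IL1R1, IL1RAP, MYD88, IL18 and SIGIRR in 24 libraries. Points are libraries, bars are the mean and SD of 3, and the vertical line divides groups without and with IFNg. MYD88 lies at or below 56.4 CPM in the ABBV-075 groups, and IL18 and SIGIRR never exceed 2.17 CPM.

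IL18, the ligand that IL18BP captures, and SIGIRR, the inhibitory receptor, were close to the detection limit. IL18 had 0 to 8 counts per library and 86 in all, with 21 over the 3 DMSO libraries and 3 over the 3 libraries with IFNg and ABBV-075. SIGIRR had 0 to 9 counts per library and 58 in all, with 20 over the DMSO libraries, 9 with ABBV-744 at 50 nM, 3 at 500 nM and 2 with ABBV-075. Neither passed the filter on low counts in any comparison. When the filter was left out, IL18 passed in 0 of 18 comparisons by edgeR, the smallest unadjusted p being 0.0923. SIGIRR passed in 1 of 18, ABBV-075 against DMSO (adjusted p = 0.0101). At this depth no change of IL18 was detectable, and counts of 3 or fewer in a library allow no fold change.

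Compared per kilobase of exon in the DMSO libraries, MYD88 stood highest with a mean of 28.5 CPM per kilobase. IL1R1 followed at 17.9, IL1RN at 8.97 and IL1RAP at 2.46 CPM per kilobase. IL18BP (0.798), IL18 (0.646) and SIGIRR (0.459) formed the low end. IL1R1 was thus measured well above its co-receptor, with ranges of 15.8 to 20.4 against 2.21 to 2.7 CPM per kilobase. The length used is that of all annotated exons together, 5851 bases for IL18BP and 11210 for IL1RAP. It is not the length of the transcript expressed, so the order between genes is approximate.

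Counted over the members that could be tested, 3 of 4 passed with ABBV-075 against DMSO, all lower, where 39.3% of all genes passed. The same count, 3 of 4 and all lower, was found with ABBV-744 at 50 nM (background 18.9%) and at 500 nM (background 15.3%). With IFNg present, 3 of 4 passed and were lower with ABBV-075 (background 56.6%) and with ABBV-744 at 500 nM (background 45.7%). At 50 nM, 3 of 4 passed, 2 lower and 1 higher (background 51.7%), and 1 of 4 after GC correction. IFNg alone changed 2 of 4, MYD88 upwards and IL1R1 downwards (background 3.46%). Under ABBV-075, IFNg changed 0 of 4 in edgeR, with log2 fold changes from -0.97 to 0.20 and a smallest adjusted p of 0.495, in a comparison where 1.05% of genes passed. DESeq2 also gave 0, and 1 member, IL1RN, had an unadjusted p under 0.05. Under ABBV-744, 3 of 5 passed with IFNg at each dose (background 60.2% at 50 nM and 40.9% at 500 nM). Without ABBV-744 500 nM replicate 3 only 1 of 5 passed at 500 nM. Between the 2 doses of ABBV-744, 0 of 5 members passed in edgeR and in DESeq2, either alone (smallest adjusted p 0.799, 2 with an unadjusted p under 0.05) or with IFNg (smallest adjusted p 0.31, 1 with an unadjusted p under 0.05, background 1.70%). Between the compounds at 50 nM, 3 of 4 members passed both without (background 40.8%) and with IFNg (background 33.7%). IL1R1 gave 0.26 without IFNg (adjusted p = 0.179, edgeR), which passed with GC correction (0.38, adjusted p = 0.0194). With IFNg it gave 0.35 (adjusted p = 0.008, edgeR), a call lost without IFNg + ABBV-075 replicate 2 (adjusted p = 0.0654) or IFNg + ABBV-744 50 nM replicate 3 (adjusted p = 0.0569).

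**Figure D4:**
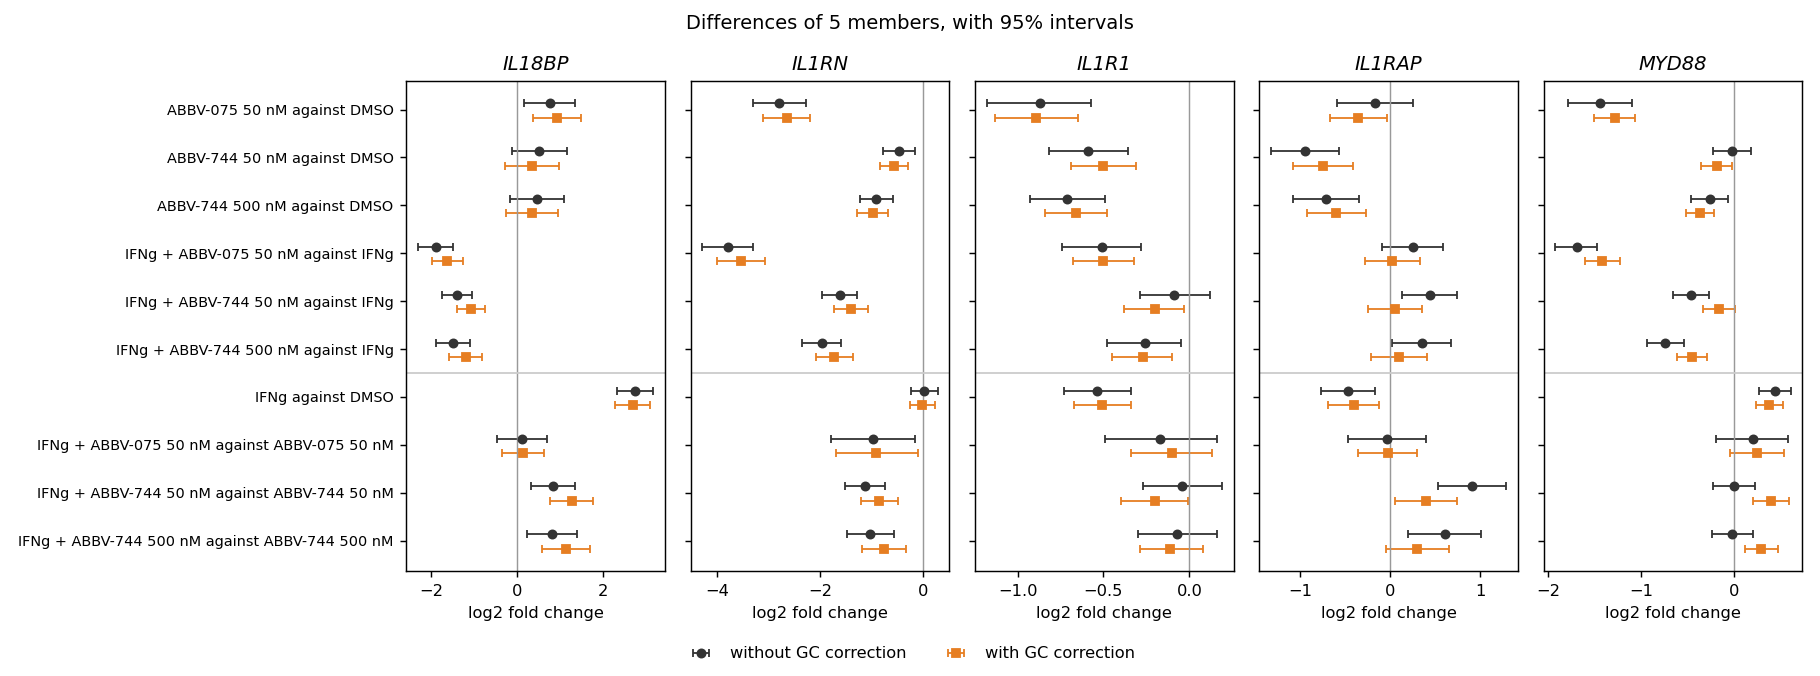
Log2 fold changes (horizontal axes, scales differ by panel) of 5 members in 10 comparisons, listed on the vertical axis, from edgeR fits without (circles) and with (squares) GC correction. Bars are 95% intervals, and for IL18BP only the 2 lowest comparisons were tested. IL1RN lies between -3.80 and -0.46 in all 6 inhibitor comparisons of the upper block, and IL18BP, IL1RAP and MYD88 all shift with the correction in the ABBV-744 comparisons with IFNg.

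Other genes of the pathway were taken from fixed lists, also chosen with earlier results of these data known. Among the 9 IL-1 family ligands, 8 had at most 3 counts in every library, IL1A, IL1B and IL33 among them, and none could be tested. Of the 8 receptors, IL1RL1, IL1RL2, IL18R1, IL18RAP, IL1RAPL1 and IL1RAPL2 had at most 3 counts in every library, so both chains of the receptor for IL-18 were at or near the detection limit. Of the 5 antagonists and decoys, IL36RN was equally low.

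Of 15 receptor-proximal signalling genes, 13 could be tested, and 2 were higher and 4 lower with ABBV-075 than with DMSO, where 39.3% of all genes passed. TAB1, a partner of the kinase TAK1, rose by 0.84 on the log2 scale (SE 0.26, adjusted p = 0.024, edgeR), and TOLLIP, an inhibitor of IL-1 receptor signalling, by 0.63. ECSIT, a TRAF6 adaptor, fell by 0.81, and only MYD88 fell further. The median over the 13 was 0.25, against 0.03 over all genes, and the count of 6 became 3 without ABBV-075 replicate 2 and 10 without replicate 3. With IFNg present, ABBV-075 raised 6 and lowered 4 of the 13 (background 56.6%). TRAF6, the ubiquitin ligase downstream of MYD88, rose by 1.13 (SE 0.21, adjusted p = 2.52e-05, edgeR), PELI1 rose by 0.84 and IRAK2 fell by 0.67, the last not passing with GC correction (-0.39, adjusted p = 0.0507). With IFNg alone MYD88 was the single gene of the 13 to pass in edgeR (background 3.46%), and 6 had an unadjusted p under 0.05. That count was 2 without DMSO replicate 1, IFNg replicate 1 or IFNg replicate 2, and 3 with library sizes alone. ABBV-744 at 500 nM lowered 3 (background 15.3%), with PELI1 at -0.83 and TAB3 at -0.56, and 1 without DMSO replicate 3 or with all 24 libraries in the fit.

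In the NF-kB module, 2 of 12 genes were higher and 7 lower with ABBV-075 (background 39.3%), with a median of -0.41 against 0.03 over all genes. TNFAIP3, the feedback deubiquitinase A20, fell by 1.13 (SE 0.16, adjusted p = 0.000227, edgeR), and NFKB2 by 1.12, while NFKBIZ, a nuclear cofactor of NF-kB, rose by 0.97 and CHUK by 0.67. CHUK no longer passed with GC correction (0.21, adjusted p = 0.211). The count of 9 was 5 without DMSO replicate 1, DMSO replicate 3 or ABBV-075 replicate 2. With IFNg present the split was again 2 higher and 7 lower (background 56.6%), with TNFAIP3 at -1.42 and NFKBIZ at 0.80. IFNg alone changed 0 of 12 in edgeR and in DESeq2 (background 3.46%), and 1 with GC correction or without IFNg replicate 2, and 1 had an unadjusted p under 0.05. ABBV-744 at 500 nM lowered 3 (background 15.3%), with RELB at -0.79 and TNFAIP3 at -0.72, and 1 without ABBV-744 500 nM replicate 3.

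Of 9 genes of the inflammasome and of ligand processing, CASP4 and GSDMD passed with IFNg, both higher (background 3.46%). With ABBV-075 GSDMD rose and CASP4 fell (background 39.3%). With IFNg present CASP4 fell with ABBV-075 and GSDMD rose narrowly (adjusted p = 0.0495, edgeR, background 56.6%). CASP1 with IFNg, PYCARD with ABBV-075, and both genes with ABBV-075 added to IFNg also passed. They could be tested there only through the group where they were high, so they are left out here. CASP1 counts among the genes tested with IFNg because it was high in that group, so its values are given without a fold change or test against groups with few counts. CASP1, the protease that matures IL-1 beta and IL-18, had 3, 2 and 1 counts with DMSO (0.239 to 0.798 CPM) and 28, 27 and 32 counts with IFNg (7.58, 7.93 and 8.89 CPM). With IFNg and ABBV-075 it had 5, 3 and 2 counts (1.24, 0.816 and 0.603 CPM), below every library with IFNg alone. With IFNg and ABBV-744 at 50 nM it was at 9.37, 8.75 and 6.92 CPM, overlapping IFNg alone (log2 fold change 0.06, 95% interval -0.43 to 0.54, adjusted p = 0.863, edgeR). With GC correction this value was -0.46 (adjusted p = 0.137).

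CASP4, a caspase that senses bacterial lipopolysaccharide, rose with IFNg with and without ABBV-075. It rose with IFNg by 1.13 (SE 0.12, adjusted p = 1.62e-09, edgeR) from a mean of 33.7 to 73.7 CPM, and by 1.44 under ABBV-075 (SE 0.19, adjusted p = 0.000981, edgeR) from 11.4 to 30.3 CPM. ABBV-075 itself lowered CASP4 by 1.59 (SE 0.17, adjusted p = 3.85e-05, edgeR). PYCARD, the inflammasome adaptor ASC, had 24, 21 and 21 counts with DMSO, 8, 4 and 6 with ABBV-075 and 5, 8 and 7 with ABBV-744 at 500 nM. It could be tested in these comparisons through its level with DMSO, so no fold change is given. With ABBV-744 at 500 nM 2 of 3 genes of the list passed (background 15.3%), CASP4 and PYCARD, the latter counted only through its level with DMSO. That count was 0 under DESeq2 and 1 without DMSO replicate 2 or 3 or ABBV-744 500 nM replicate 1 or 3, and CASP4 did not pass with GC correction (-0.29, adjusted p = 0.147). GSDMD, the pore-forming gasdermin, rose by 0.75 with ABBV-075 (adjusted p = 0.0202) and by 0.90 with IFNg (adjusted p = 0.0261, edgeR). NLRP3, NLRC4, AIM2 and CASP5 had at most 3 counts in every library.

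**Figure D5:**
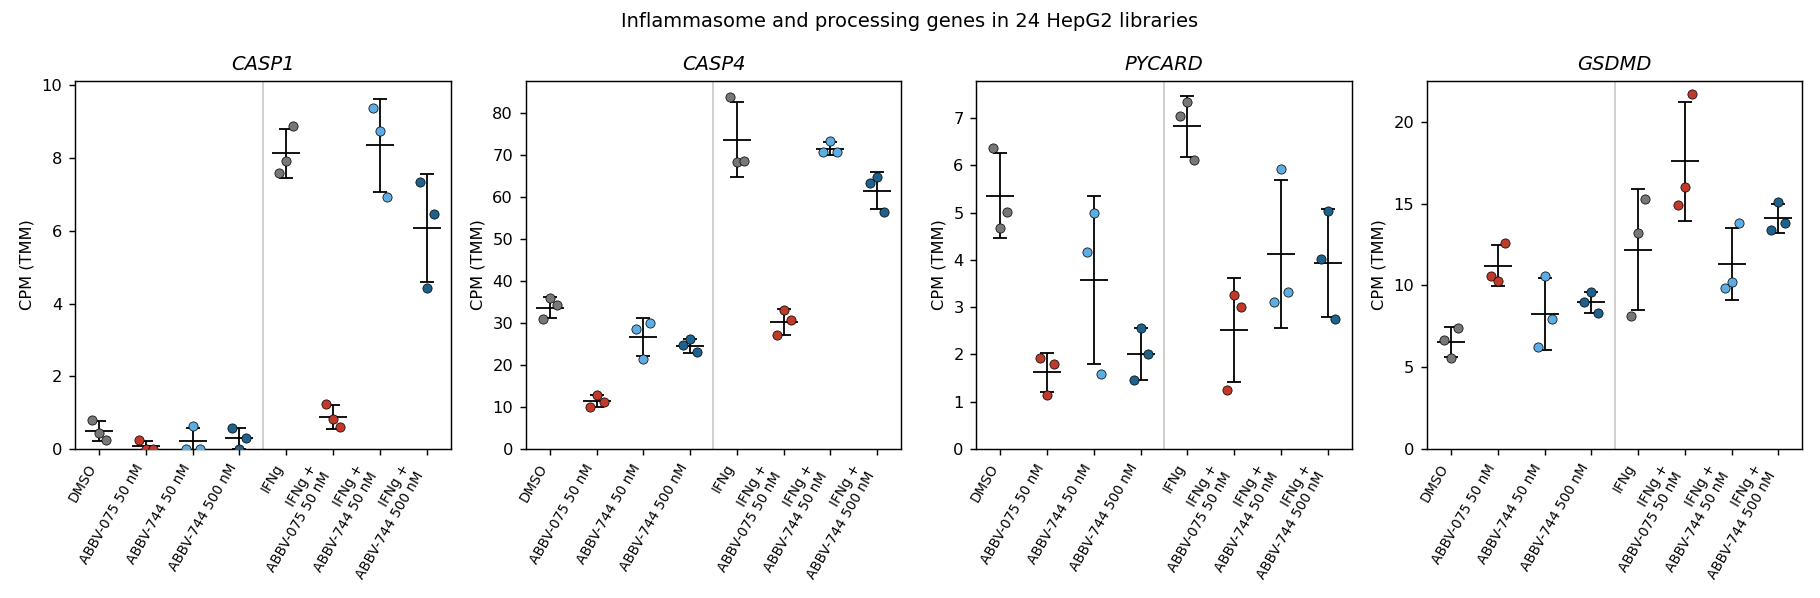
CPM (TMM scaled, vertical axes starting at 0) of CASP1, CASP4, PYCARD and GSDMD in 24 libraries. Points are libraries, bars are the mean and SD of 3, and the vertical line divides groups without and with IFNg. CASP1 is at or below 1.24 CPM without IFNg and with IFNg plus ABBV-075, and between 4.44 and 9.37 CPM in the other groups with IFNg.

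Of 12 hepatocyte genes that answer IL-1, 7 could be tested, and 5 were lower and 0 higher with ABBV-075 (background 39.3%). CCL20, a chemokine, fell by 1.33 on the log2 scale (SE 0.17, adjusted p = 0.000113, edgeR). CXCL8, a neutrophil chemokine, had 16, 23 and 27 counts with DMSO and 6, 2 and 1 with ABBV-075, so no fold change is given. It is among the 5 lower genes, though it could be tested only through its level with DMSO. With IFNg present all 6 that could be tested were lower (background 56.6%), ORM2, an acute phase protein, by a log2 fold change of -1.18, and CXCL8 with 1 count in each library against 10 to 19 with IFNg alone. CXCL8 counts among the 6 only through its level with IFNg alone. ABBV-744 at 500 nM lowered 2 genes, CXCL8 and CCL20, the latter with a log2 fold change of -1.44, and raised C3 by 0.42 (background 15.3%). CXCL8 is among these 2 only through its level with DMSO. IFNg raised C3, the central complement component, by 0.50 (SE 0.08, adjusted p = 9.32e-06, edgeR) and lowered HP by 0.31 (SE 0.08, adjusted p = 0.0164, edgeR). This count of 2 (background 3.46%) was 1 without DMSO replicate 1 or 2 or IFNg replicate 2 or 3, and 0 with all 24 libraries in the fit. SAA1, SAA2, CRP, LCN2 and IL6 had at most 3 counts in every library.

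The genes whose 8 group means lay closest to those of IL18BP, among 11590 genes, were BISPR (Pearson r = 0.969), C1R (0.906), GSDMB (0.899), IFI30 (0.891) and MAX (0.890). C1R, a complement protease, went from a mean of 4.69 CPM with DMSO to 67.8 with IFNg and 7.73 with IFNg plus ABBV-075. Those closest to IL1RN were LINC01101 and SSUH2 (both 0.997), NME1 (0.997), HERPUD1 (0.995) and MOGAT2 (0.994). SSUH2 stood at a mean of 44.5 CPM with DMSO, 42.4 with IFNg and 4.42 with IFNg plus ABBV-075. These are descriptions over 8 means that share libraries, depth and the GC trend.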

How the data were processed

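Total RNA of HepG2 cells was depleted of ribosomal RNA and sequenced from strand-marking libraries. Per the labels and the study's methods, the authors used CASAVA 1.8.2, Trimmomatic 0.33 and STAR 2.7.1 on GRCh38 (hg38), and deposited read counts per gene in the layout STAR writes. The annotation used for counting is not given in the sources used here. The sense-strand counts were used, without the 4 lines of reads that name no gene. Between 12.0% and 16.8% of reads were counted on a gene and 56.0% to 69.4% mapped to several places, which left 2978982 to 4304103 counts on genes per library, so that counting error limits the precision of genes with few counts.

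Groups were taken from the treatment labels. Each of 14 pairwise comparisons and 4 interactions was fitted with edgeR 4.0.16 (quasi-likelihood F test, filterByExpr, TMM, R 4.3.3) on the libraries of the groups compared, and p-values were adjusted by Benjamini-Hochberg over all genes tested. A gene passed at an adjusted p of at most 0.05, and intervals are 95%. Standard errors are log2 fold changes divided by the root of the F value. Alternatives were DESeq2 1.42.0, other scalings and filters, unstranded counts, all 24 libraries, the replicate number as a block and leaving out each library. A further alternative was an offset for the GC content of the longest annotated transcript (lowess span 0.3 per library, GC content known for 92.7% of symbols). Pattern neighbours used log2 CPM with a prior count of 2. The main edgeR fit was tested on simulated data for some of the comparisons, not for all. The alternative fits were not tested in this way. No pair of replicates agreed within sampling noise (chi-square per degree of freedom 1.66 to 16.6, the largest between ABBV-075 replicates 1 and 3).

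The members and gene lists were chosen with earlier results of these data known. Named genes were the 7 members, the 5 closest pattern neighbours of IL18BP and of IL1RN, the label checks and, for 4 comparisons, at most the 2 genes most changed in each direction among those passing in each list. GSDMD with IFNg, and CASP1 and CASP4 in other comparisons, were added after their values were seen.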

Additional observations from a re-analysis of the deposited data

Results flagged for a closer look

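The IFNg response of 4 members differed between DMSO and ABBV-744 by the interaction test of edgeR, in fits where 51.6% of all genes passed at 50 nM and 33.5% at 500 nM. At 50 nM the interactions on the log2 scale were -1.18 for IL1RN, 0.47 for IL1R1, 1.35 for IL1RAP and -0.47 for MYD88. At 500 nM they were -1.05 for IL1RN, 0.47 for IL1R1, 1.08 for IL1RAP and -0.45 for MYD88. Both doses share the DMSO and IFNg libraries. After GC correction, IL1RN (-0.84 and -0.76) and IL1RAP (0.81 and 0.70) passed at both doses, IL1R1 passed at 500 nM only (0.30 and 0.40), and MYD88 passed at neither (0.02 and -0.09).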

How the results depend on the processing

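Leaving out a library, another tool or scaling, another filter, unstranded counts, all 24 libraries, the replicate block and GC correction were tried for each value. Of 774 values for members under settings that kept every library, 718 kept their direction and their side of the threshold, or for IL18BP without a test moved by less than the replicate spread. For IL1RN with ABBV-744 50 nM against DMSO the values were -0.46 under DESeq2, -0.47 with all 24 libraries, -0.46 with the replicate block and -0.54 to -0.39 without 1 library, and all but 1 of these left-out fits lost the call. No pairing of the samples by replicate number was detected across the groups. Same-numbered libraries had a median correlation of 0.01 (-0.18 to 0.34), though ABBV-075 and IFNg + ABBV-075 gave 0.30, -0.07 and 0.25. With the block, MYD88 under IFNg + ABBV-744 50 nM against ABBV-744 50 nM was -0.003. With all 24 libraries that value was -0.002, with unstranded counts -0.006, and without 1 library -0.08 to 0.09. The cause of these changes was not tested.

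GC correction, the same with the block unless both are given, changed these values, among others. IL18BP was -1.06 for IFNg + ABBV-744 50 nM against IFNg, and its interactions were -1.42 at 50 nM and -1.55 at 500 nM. Between doses IL18BP was 0.01, and 0.03 with the block. IL1RN with IFNg was -0.005, and -0.004 with the block. MYD88 was 0.29 for IFNg under ABBV-744 500 nM, and its 50 nM interaction was 0.02, and 0.01 with the block. Members passing fell to 1 of 4 for IFNg + ABBV-744 50 nM against IFNg and to 2 of 4 for the 50 nM interaction. With library sizes alone IL1RN with IFNg was -0.03, IL1R1 with IFNg under ABBV-744 50 nM 0.05 and MYD88 with IFNg under ABBV-744 500 nM 0.01, the last 0.008 under both DESeq2 and RLE scaling. With library sizes alone the median of all genes in the 50 nM interaction was 0.04, against -0.14 with TMM.

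Leaving out 1 library gave these ranges. IL1RAP with ABBV-075 ran from -0.38 to 0.009 and MYD88 with ABBV-744 50 nM from -0.06 to 0.006. IL1RN with IFNg ran from -0.05 to 0.09, IL18BP with IFNg under ABBV-075 from -0.04 to 0.33 and IL1R1 with IFNg under ABBV-744 50 nM from -0.09 to 0.06. Under ABBV-744 500 nM, the IFNg response ran from 0.58 to 1.05 for IL18BP and from -0.04 to 0.02 for MYD88, with 1 to 3 members passing. Between doses IL18BP ran from -0.29 to 0.26 without IFNg and from -0.27 to 0.12 with it, and its dose interaction from -0.33 to 0.23. The 50 nM interaction of IL18BP ran from -2.17 to -1.63, and the dose interaction of IL1RN from -0.03 to 0.27. A minimum of 10 counts in every library left out some members with few counts. The low counts of IL18 and SIGIRR limit what could be detected for them.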
